A study of Mus musculus with 8 samples.

Results

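The genes described here build cholesterol and fatty acids and control that synthesis, and they were taken as a listed set of 32 mouse genes from a deposited table of read counts with 23420 features. Of the 32 genes, 31 were found by symbol and 1, Msmo1, under its older symbol Sc4mol, and all 32 passed the filter on low counts and were tested among 12442 genes. They comprised 18 enzymes of the sterol branch (7 of the mevalonate steps and 11 from squalene to sterol), 6 genes of SREBP control and 8 of the fatty acid branch. RNA was sequenced from mouse dendritic cells, the cells that present antigen to T cells. The 4 groups were Gata1 knock-out cells stimulated with LPS (KO LPS), Gata1 wild-type cells stimulated with LPS (WT LPS), unstimulated knock-out cells (KO ST, for steady state) and unstimulated wild-type cells (WT ST), with 2 libraries each. LPS is bacterial lipopolysaccharide, which is sensed by toll-like receptor TLR4, and Gata1 encodes a transcription factor of red cell, platelet, mast cell and eosinophil lineages. The cells came from knock-out or wild-type mice, and the series' design text calls the 2 libraries of a group biological replicates. No source used here gives the LPS dose and time, the tissue the cells came from, the age and strain of the mice, or the promoter or Cre behind the knock-out.

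Cholesterol is made from acetyl-CoA through mevalonate, isoprenoid diphosphates and squalene, and the same acetyl-CoA feeds fatty acid synthesis through malonyl-CoA. The genes of both branches are switched on by SREBP transcription factors, with SREBP2 (Srebf2) acting mainly on sterol genes and SREBP1 (Srebf1) mainly on fatty acid genes. SREBPs are held in the endoplasmic reticulum by SCAP and the INSIG proteins when sterols are plentiful, and are carried to the Golgi and cut into active factors when sterols are scarce.

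Total counts ran from 8005151 to 15495249 per library. Gata1 had 0 reads in both KO LPS and both KO ST libraries, against 0 and 1 reads in WT LPS and 1 and 10 in WT ST. Levels below are in CPM, the read count scaled to library size with TMM factors. Differences are log2 fold changes ± SE from edgeR's quasi-likelihood test over all 8 libraries, and genes with an adjusted p (Benjamini-Hochberg, over all genes tested) under 0.05 were called. The spread between libraries was larger with LPS: the SD of log2 CPM between a group's libraries had a median over genes of 0.355 in KO LPS and 0.463 in WT LPS, against 0.111 in KO ST and 0.196 in WT ST. The summed level of 12 dendritic cell markers, all of which had reads, was 6164 and 11080 CPM in KO LPS, 16352 and 10364 in WT LPS, 22026 and 21089 in KO ST, and 29317 and 16560 in WT ST. Of these markers Cd209a had 0 reads in both KO LPS libraries and in WT LPS replicate 1. The 9 macrophage markers found of 10 listed summed to 5086 and 6227 CPM in KO LPS and 3612 and 1850 in WT LPS. At steady state they summed to 4549 and 4494 CPM in KO ST, and 3898 and 2966 in WT ST. Some macrophage genes were thus also at high levels in cells labelled dendritic. The list was split: 5 markers were lower in both KO LPS than in both KO ST libraries, and 4 were higher. C1qa had 48.7 and 20.7 CPM in KO LPS, against 328 and 438 in KO ST. Cd68 had 1145 and 1820 CPM in KO LPS, against 620 and 455 in KO ST.

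The promoters of 4 members are shown because the results turn on these genes: Hmgcs1, Idi1 and Fasn were among the genes that fell with LPS in KO cells, and Pmvk was the gene that separated the genotypes. Each is the RefSeq window (GRCm38.p6, the assembly of mm10) from 250 bases before to 50 bases after an annotated start, 5′ to 3′ on the gene's strand. Capitals mark the sterol regulatory element core TCACNCCAC, the CCAAT box or the E-box CACGTG on either strand.
Hmgcs1, chr13:119690101-119690400, plus strand: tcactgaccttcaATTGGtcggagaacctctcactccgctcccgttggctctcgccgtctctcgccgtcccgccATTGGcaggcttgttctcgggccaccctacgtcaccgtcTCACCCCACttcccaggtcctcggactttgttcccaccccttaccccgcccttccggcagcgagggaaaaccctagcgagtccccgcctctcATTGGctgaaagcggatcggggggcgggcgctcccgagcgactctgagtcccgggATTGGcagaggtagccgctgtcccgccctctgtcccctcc
Idi1, chr13:8885356-8885655, plus strand: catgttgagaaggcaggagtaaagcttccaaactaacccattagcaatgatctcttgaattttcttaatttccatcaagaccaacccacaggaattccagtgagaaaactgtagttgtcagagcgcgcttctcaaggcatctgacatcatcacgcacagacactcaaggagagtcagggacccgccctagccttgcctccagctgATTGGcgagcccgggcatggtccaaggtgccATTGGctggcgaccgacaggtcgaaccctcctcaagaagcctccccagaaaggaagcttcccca
Pmvk, chr3:89454291-89454590, plus strand: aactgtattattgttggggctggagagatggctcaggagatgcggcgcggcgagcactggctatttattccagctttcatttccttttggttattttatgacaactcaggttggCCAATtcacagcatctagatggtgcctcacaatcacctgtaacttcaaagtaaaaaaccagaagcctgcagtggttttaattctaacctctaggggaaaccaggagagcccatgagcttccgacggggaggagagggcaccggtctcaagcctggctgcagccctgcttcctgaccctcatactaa
Fasn, chr11:120824498-120824797, minus strand: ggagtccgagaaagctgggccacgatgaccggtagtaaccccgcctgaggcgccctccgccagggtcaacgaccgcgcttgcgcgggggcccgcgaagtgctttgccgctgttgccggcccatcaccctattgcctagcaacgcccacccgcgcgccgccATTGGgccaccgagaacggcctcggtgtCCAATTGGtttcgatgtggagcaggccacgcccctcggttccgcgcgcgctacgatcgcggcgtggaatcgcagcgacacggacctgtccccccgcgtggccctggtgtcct

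RefSeq windows were found for 25 of the 32 members, in 33 windows. The core TCACNCCAC was present in 1 of the 33 windows, that of Hmgcs1 (as TCACCCCAC), and in 1.24% of all 32851 mouse windows of the same length. CCAAT was present in 21 of the 33 windows, or 63.6%, against 37.4% of all windows. CACGTG was present in 6 of the 33 windows (18.2%), in 5 genes (Dhcr7, Hsd17b7, Insig1, Sc5d and Scap), against 7.15% of all windows. The Hmgcs1 window held 4 CCAAT matches, that of Idi1 2, that of Fasn 3, of which a pair overlap each other, and that of Pmvk 1. A second Pmvk window, at another annotated start inside the gene's span (chr3:89459321-89459620), held none of the motifs. Which of these starts the cells used was not tested. A match of letters is a description and does not show binding. Forms of an element that differ from these letters were not searched for, so a window without a match may still hold one.

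Per length of exon, the highest members differed between groups. Pmvk led in WT LPS with a mean of 132 CPM per kb, whereas in KO LPS the highest was Scd2, a stearoyl-CoA desaturase, at 71.7 CPM per kb, followed by Mvd at 50.0. At steady state the leaders were Scd2 and Acly in KO (57.6 and 57.2 CPM per kb) and Acly and Pmvk in WT (48.4 and 45.2 CPM per kb). The 2 KO LPS libraries gave 106 and 37.5 CPM per kb for Scd2, so its place at the top rests on replicate 1. The lowest members in WT ST were Elovl6 at 1.15, Acaca at 1.61 and Hsd17b7 at 1.67 CPM per kb. Chromosome 19 holds 5 of the members (Tm7sf2, Scd1, Scd2, Fads1 and Fads2) and chromosome 11 holds 4 (Srebf1, Acly, Acaca and Fasn).

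**Figure D1:**
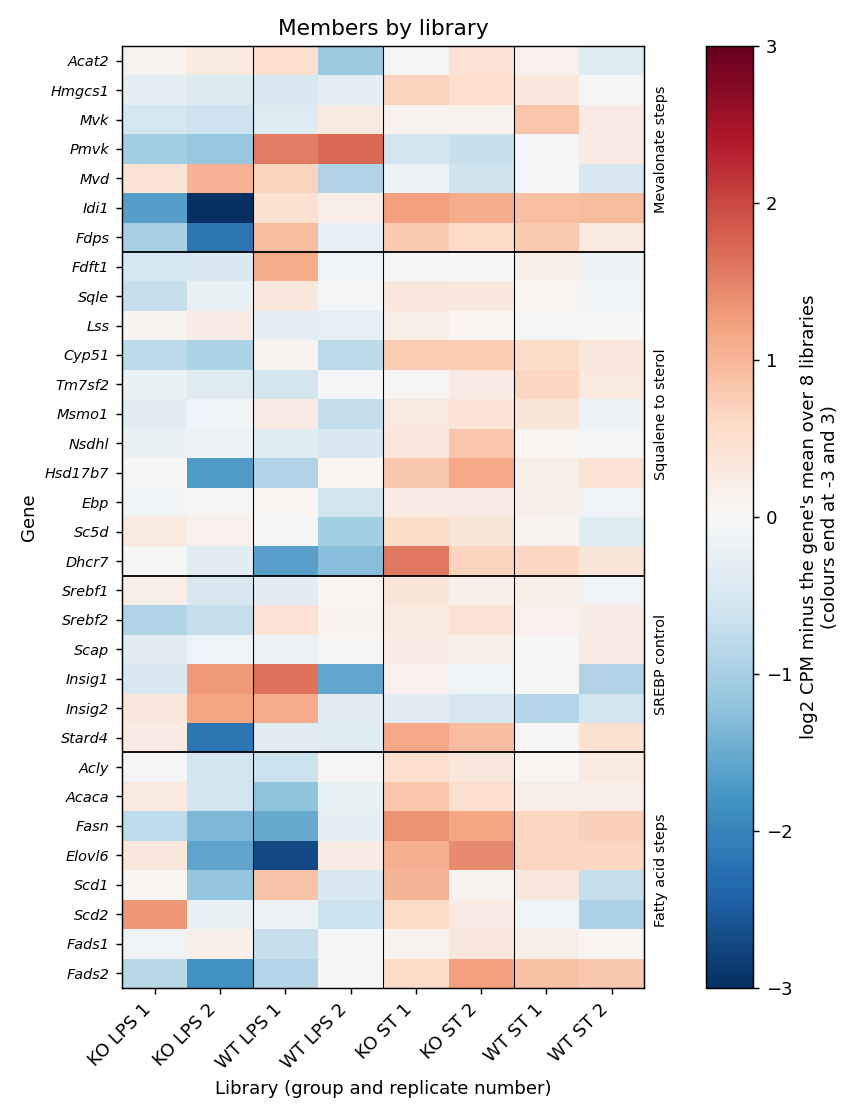
Each row is a member, grouped by role, and each column a library (KO or WT, LPS or ST for steady state, replicate number); colour gives log2 CPM minus the gene's mean over 8 libraries, with colours ending at -3 and 3. Of the 32 rows, 16 are below their mean in both KO LPS columns and 27 above it in both KO ST columns (14 do both), and Pmvk is highest in the 2 WT LPS columns.

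In KO cells, 7 of the 32 members fell with LPS and none rose. The 7 were Idi1, Hmgcs1, Cyp51, Dhcr7, Srebf2, Fasn and Fads2, which fell between 1.92-fold (Hmgcs1) and 13.0-fold (Idi1). That is 21.9% of the members lower and 0% higher, beside 6.46% lower and 5.3% higher among all genes tested. The median log2 difference of the 32 members was -0.69, and that of all genes tested was -0.02. In these bulk samples fewer cells of a type and less RNA per cell cannot be told apart. Of the 12 dendritic cell markers above, 9 were lower in both KO LPS than in both KO ST libraries, Sirpa and Xcr1 were higher and Clec9a overlapped. Of the 12 cell cycle markers, which summed to 244 and 212 CPM in KO LPS, against 237 and 358 in KO ST, 10 were lower. Pcna overlapped and Mki67 was higher, at 161 and 97.8 CPM in KO LPS, against 32.5 and 77.8 in KO ST. The part of these markers in the result was not tested.

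Among the mevalonate enzymes, Idi1, which isomerises isopentenyl diphosphate, had 0.791 and 0.153 CPM in the KO LPS libraries, against 6.90 and 6.38 CPM in KO ST. These KO LPS values are 7 and 1 reads, so the size of the fold is uncertain (log2 -3.70 ± 0.62, edgeR adjusted p = 0.0147). The difference was -5.34 without KO LPS replicate 1 and -3.07 without replicate 2. Hmgcs1, the synthase that makes HMG-CoA (chromosome 13, 119690351 to 119708260), had 54.4 and 50.7 CPM in KO LPS, against 107 and 94.7 in KO ST. The difference was log2 -0.94 ± 0.23 (edgeR adjusted p = 0.0410), and the groups did not overlap. The same held, with lower levels in KO LPS, for 38.2% of all genes tested. Fdps, which builds farnesyl diphosphate, had 2.71 and 1.07 CPM in KO LPS, against 9.77 and 8.50 in KO ST, and lay just outside the threshold (log2 -2.24 ± 0.60, edgeR adjusted p = 0.0528). Mvd, the decarboxylase that follows Pmvk in the pathway, was the mevalonate enzyme with the highest difference, at 68.6 and 107 CPM in KO LPS and 46.3 and 34.3 in KO ST (log2 1.12 ± 0.51, edgeR adjusted p = 0.169). Its groups did not overlap either, in the opposite direction to Hmgcs1, as in 34.4% of all genes. Mvk, a kinase, and Acat2, the thiolase of the opening step, had differences of -0.69 ± 0.36 and -0.05 ± 0.55.

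From squalene to sterol, 10 of the 11 enzymes had differences below 0, and 2 were called. Cyp51, the lanosterol demethylase, had 23.5 and 21.1 CPM in KO LPS, against 69.3 and 69.8 in KO ST (log2 -1.64 ± 0.32, edgeR adjusted p = 0.0228). The replicates of each group lay close together for this gene. Dhcr7, the reductase that makes cholesterol from dehydrocholesterol, had 29.3 and 23.1 CPM in KO LPS, against 87.0 and 46.4 in KO ST (log2 -1.35 ± 0.35, edgeR adjusted p = 0.0476). KO ST replicate 1 was the high library, and without it the difference was -0.82. Sqle, the epoxidase of squalene, had 23.9 and 33.1 CPM in KO LPS, against 49.1 and 48.9 in KO ST (log2 -0.78 ± 0.25, edgeR adjusted p = 0.0846). Nsdhl and Hsd17b7, which take part in removing methyl groups from the sterol ring, had -0.82 ± 0.28 and -1.62 ± 0.60. Fdft1, Tm7sf2, Msmo1, Ebp and Sc5d lay between -0.56 and -0.24, each with groups that did not overlap, as in 38.2% of all genes. The exception, just above 0, was Lss, the cyclase that makes lanosterol, at 17.8 and 19.6 CPM in KO LPS and 19.1 and 17.6 in KO ST (log2 0.03 ± 0.24, 95% interval -0.54 to 0.60).

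Of the SREBP control genes, 1 of 6 was called. Srebf2 (chromosome 15, 82147269 to 82205379) had 108 and 124 CPM in KO LPS, against 246 and 271 in KO ST, a fall of 2.23-fold (log2 -1.16 ± 0.25, edgeR adjusted p = 0.0286). Srebf1 had 93.3 and 58.8 CPM in KO LPS, and 106 and 91.0 in KO ST, with overlapping groups (log2 -0.38 ± 0.30, edgeR adjusted p = 0.398). Scap, the escort of the SREBPs, differed by -0.41 ± 0.21 (edgeR adjusted p = 0.219). Insig2, which retains SCAP in the endoplasmic reticulum, was on the other side, at 39.6 and 70.9 CPM in KO LPS and 24.6 and 22.0 in KO ST (log2 1.24 ± 0.49, edgeR adjusted p = 0.130). Stard4, a sterol carrier, had 18.1 and 3.22 CPM in KO LPS, against 34.2 and 29.0 in KO ST, and its KO LPS libraries differed from each other by more than the groups did (log2 -1.55 ± 0.65, edgeR adjusted p = 0.148).

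In the fatty acid branch, 2 of 8 genes were called. Fasn, the fatty acid synthase (chromosome 11, 120805958 to 120825166), had 45.2 and 30.2 CPM in KO LPS, against 194 and 175 in KO ST (log2 -2.29 ± 0.42, edgeR adjusted p = 0.0199). Fads2, a desaturase of polyunsaturated fatty acids, had 6.78 and 3.37 CPM in KO LPS, against 18.8 and 29.2 in KO ST (log2 -2.23 ± 0.47, edgeR adjusted p = 0.0277). Neither gene's groups overlapped, as in 38.2% of all genes with lower levels in KO LPS. Fads2 was at -2.83 without KO LPS replicate 1 and -1.84 without replicate 2. Its chromosomal neighbour Fads1 had 108 and 131 CPM in KO LPS, and 126 and 147 in KO ST, and its groups overlapped (log2 -0.20 ± 0.28, edgeR adjusted p = 0.643). Acly, which makes cytosolic acetyl-CoA, and Acaca, the acetyl-CoA carboxylase, had -0.69 ± 0.32 and -0.74 ± 0.43. Elovl6, an elongase, had -1.60 ± 0.93, and the desaturase Scd1 -1.05 ± 0.63. Scd2 had 578 and 205 CPM in KO LPS, and 348 and 280 in KO ST, and was the 1 fatty acid gene with a difference above 0 (log2 0.32 ± 0.51).

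No library of KO LPS overlapped those of KO ST for 24 members lower and 2 higher (Mvd and Insig2) in KO LPS, or 75.0% and 6.25%, beside 38.2% and 34.4% of all genes. The count of 7 calls depended on the libraries in the fit: it was 0 without KO ST replicate 1, KO ST replicate 2 or KO LPS replicate 2, 3 without KO LPS replicate 1, 1 (Idi1) without either WT ST library and 11 without either WT LPS library. Calls over all genes moved with it: 1463 with all libraries, 143 to 249 in the fits with 0 members, and 3328 and 3345 in those with 11. With the replicate number as a block it was 4 (Idi1, Fdps, Cyp51 and Fasn).

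**Figure D2:**
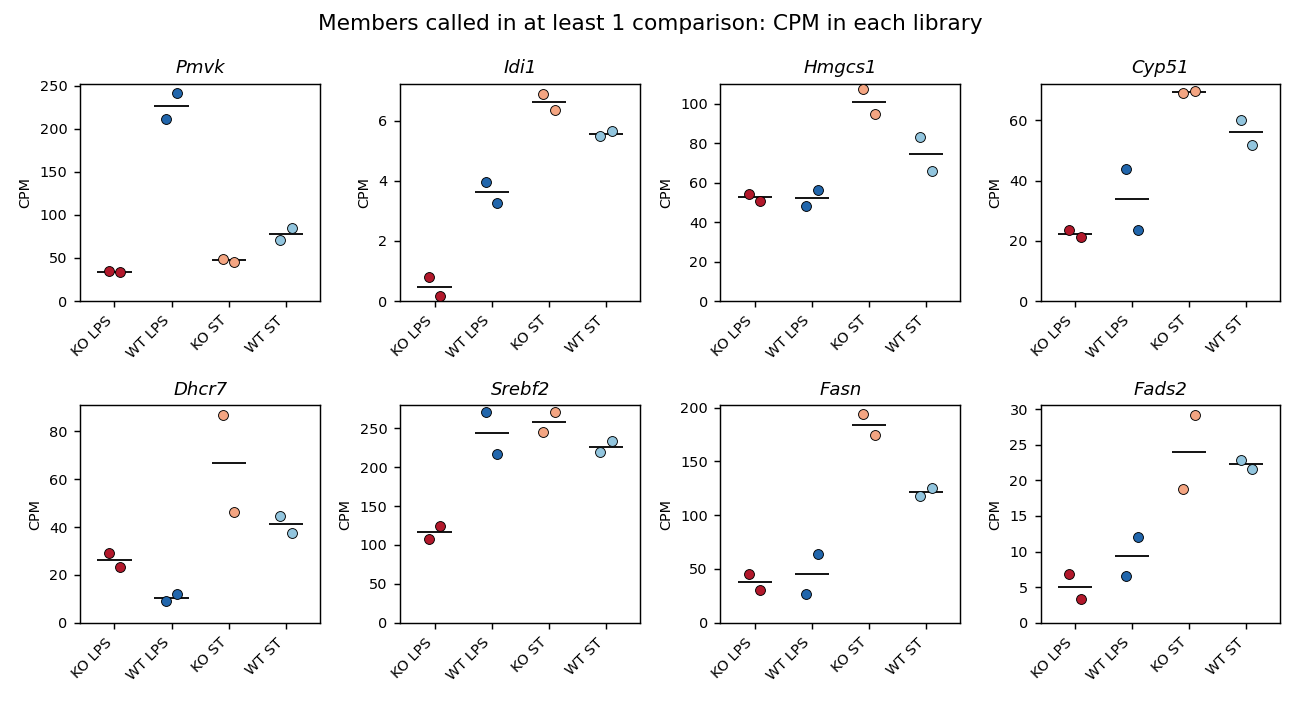
Panels give CPM (linear axis from 0) in each library for the 8 members called in at least 1 comparison; points are the 2 libraries of a group, bars their mean, and ST is steady state. Pmvk is near 227 CPM in WT LPS and under 90 in every other group. All 8 members are lower in both KO LPS libraries than in both KO ST libraries.

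In WT cells, LPS changed 2 members, and they moved in opposite directions. Pmvk, the kinase that makes mevalonate diphosphate (chromosome 3, 89454541 to 89469014), had 211 and 242 CPM in WT LPS, against 70.4 and 84.5 in WT ST, a rise of 2.92-fold (log2 1.55 ± 0.22, edgeR adjusted p = 0.0110). Dhcr7 had 9.26 and 11.8 CPM in WT LPS, against 44.7 and 37.5 in WT ST (log2 -1.96 ± 0.36, edgeR adjusted p = 0.0236). Neither gene's groups overlapped. Of the members 3.12% were thus higher and 3.12% lower, beside 3% higher and 3.49% lower among all genes, which is near the background. The median log2 difference was -0.31 over the 32 members and 0.00 over all genes.

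Fasn had 26.8 and 64.0 CPM in WT LPS, against 118 and 125 in WT ST, and did not pass (log2 -1.42 ± 0.41, edgeR adjusted p = 0.0846). Fads2 had 6.61 and 12.1 CPM in WT LPS, against 22.8 and 21.6 in WT ST (log2 -1.24 ± 0.45, edgeR adjusted p = 0.135). For both genes WT LPS replicate 1 was the lower library and the groups stayed apart. Cyp51 had 43.9 and 23.6 CPM in WT LPS, against 60.3 and 51.8 in WT ST (log2 -0.73 ± 0.31, edgeR adjusted p = 0.185). Srebf2 had 271 and 217 CPM in WT LPS, and 219 and 233 in WT ST, with overlapping groups (log2 0.11 ± 0.24, 95% interval -0.46 to 0.68). Idi1 had 3.97 and 3.28 CPM in WT LPS, against 5.51 and 5.65 in WT ST (log2 -0.63 ± 0.51, edgeR adjusted p = 0.456). Hmgcs1 had 48.1 and 56.1 CPM in WT LPS, against 83.4 and 66.0 in WT ST (log2 -0.52 ± 0.23, edgeR adjusted p = 0.194). Fdft1, the squalene synthase, whose span overlaps the lysosomal gene Ctsb, had 31.1 and 13.0 CPM in WT LPS, and 16.2 and 12.9 in WT ST (log2 0.59 ± 0.42). Scd1 had 65.6 and 26.2 CPM in WT LPS, and 45.7 and 22.2 in WT ST, the highest difference of the fatty acid genes (log2 0.43 ± 0.62). Both genes' groups overlapped. Stard4 had 12.2 and 11.6 CPM in WT LPS, against 15.4 and 20.8 in WT ST (log2 -0.61 ± 0.64). Insig2 had 67.8 and 24.7 CPM in WT LPS, against 17.0 and 20.7 in WT ST (log2 1.29 ± 0.49, edgeR adjusted p = 0.152).

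The libraries of WT LPS and WT ST did not overlap for 15 members lower and 2 higher (Pmvk and Insig2), or 46.9% and 6.25%, beside 29.1% and 27.5% of all genes. Pmvk and Dhcr7 lost their calls without either WT ST library, giving a count of 0, and 7 members were called without WT LPS replicate 2 (Pmvk, Fdft1 and Insig2 higher; Dhcr7, Fasn, Elovl6 and Fads2 lower), in a fit that called 3629 genes in all, against 807 with all libraries. Without WT LPS replicate 1 the 2 called were Pmvk and Cyp51, and with only the WT libraries in the fit the count was 0.

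**Figure D3:**
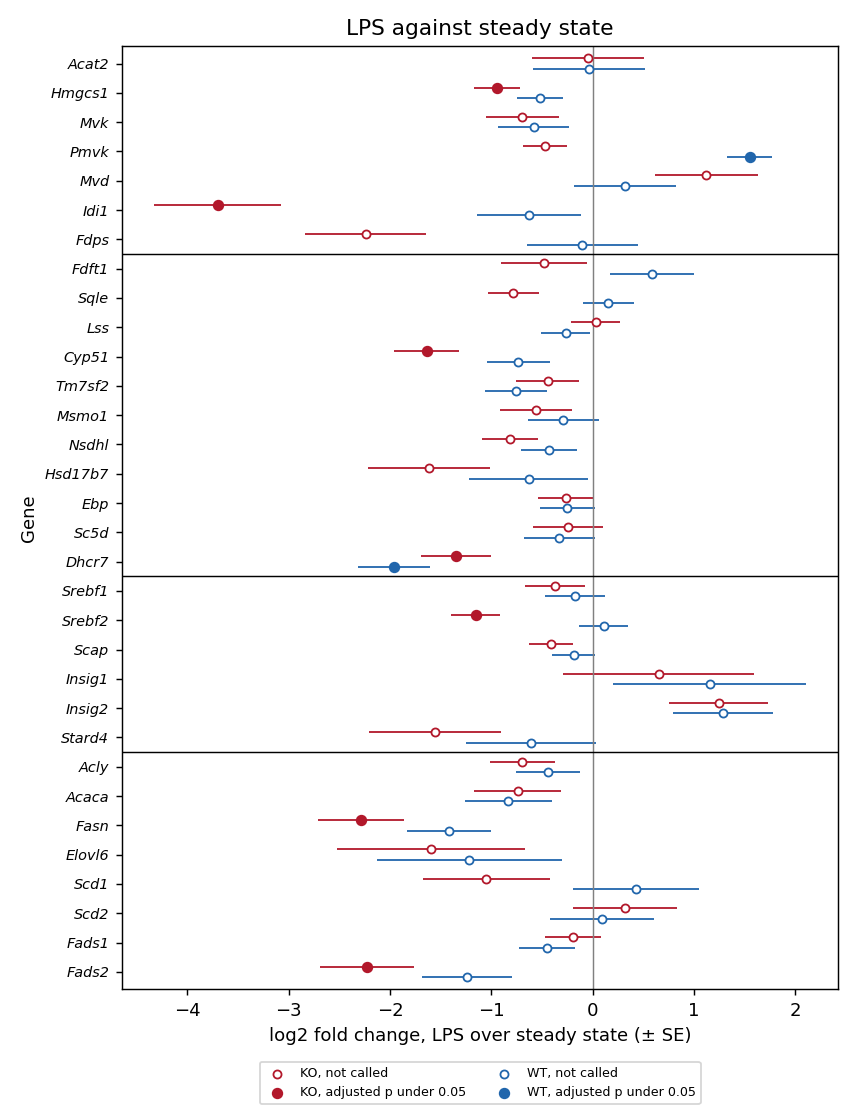
Log2 fold change of LPS over steady state (x axis) for each member (y axis, by role) in KO above WT, with SE bars; filled points have an adjusted p under 0.05. The 7 filled KO points lie between -3.70 and -0.94, and the 2 filled WT points are Pmvk at 1.55 and Dhcr7 at -1.96.

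Between the genotypes with LPS, 1 of the 32 members was called. Pmvk had 35.0 and 33.2 CPM in KO LPS, against 211 and 242 in WT LPS, and was 6.64-fold lower in KO (log2 -2.73 ± 0.23, edgeR adjusted p = 0.0138). No other RefSeq gene overlaps its span. The share of members called was 3.12% lower and 0% higher, beside 0.49% lower and 0.281% higher among all genes. The median log2 difference was -0.03 over the members and -0.01 over all genes, so the set as a whole was centred where all genes were. The cell type markers differed too. Of the dendritic cell markers, Itgax, Flt3, Zbtb46, H2-Aa and Ccr7 were lower in both KO LPS than in both WT LPS libraries. Sirpa and Clec9a were higher, and the others overlapped. Itgax had 80.3 and 78.8 CPM in KO LPS, against 645 and 214 in WT LPS. Of the macrophage markers, Emr1, Csf1r, C1qa, C1qc, Fcgr1 and Marco were higher, and Mertk, C1qb and Cd68 overlapped. Their part in the call of Pmvk was not tested.

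Idi1 and Fdps, also of the mevalonate steps, were also lower in KO LPS but did not pass. Idi1 had 0.791 and 0.153 CPM in KO LPS, against 3.97 and 3.28 in WT LPS (log2 -2.82 ± 0.62, edgeR adjusted p = 0.0887). Fdps had 2.71 and 1.07 CPM in KO LPS, against 11.0 and 4.64 in WT LPS (3.99-fold lower, 95% interval of the log2 difference -3.39 to -0.60, edgeR adjusted p = 0.153). In both genes each KO library was below each WT library. Srebf2 had 108 and 124 CPM in KO LPS, against 271 and 217 in WT LPS (log2 -1.07 ± 0.25, edgeR adjusted p = 0.0922). Dhcr7 lay on the other side, at 29.3 and 23.1 CPM in KO LPS and 9.26 and 11.8 in WT LPS (log2 1.31 ± 0.35, edgeR adjusted p = 0.125). Scd2 had 578 and 205 CPM in KO LPS, and 207 and 149 in WT LPS, and its groups overlapped (log2 1.14 ± 0.52, edgeR adjusted p = 0.327). Fdft1 had 9.83 and 10.4 CPM in KO LPS, against 31.1 and 13.0 in WT LPS (log2 -1.11 ± 0.42, edgeR adjusted p = 0.244). Fads2, the lowest of the fatty acid genes, had 6.78 and 3.37 CPM in KO LPS, and 6.61 and 12.1 in WT LPS, with overlapping groups (log2 -0.88 ± 0.46). The WT LPS libraries were unequal for both genes. For Fads2 the KO LPS libraries were unequal too, with a ratio of 2.01, against 1.82 in WT LPS. Hmgcs1 was at nearly the same level in both groups, 54.4 and 50.7 CPM in KO LPS and 48.1 and 56.1 in WT LPS (log2 0.01 ± 0.23, 95% interval -0.52 to 0.54).

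The groups did not overlap for 8 members lower (Mvk, Pmvk, Idi1, Fdps, Fdft1, Sqle, Cyp51 and Srebf2) and 4 higher (Lss, Nsdhl, Sc5d and Dhcr7) in KO LPS, or 25.0% and 12.5%, beside 18.1% and 18% of all genes. None of the 8 fatty acid genes was among these 12. Leaving out any 1 of the KO libraries, stimulated or not, ended the call of Pmvk (edgeR adjusted p = 0.0664 to 0.121) and with only the LPS libraries in the fit (0.251), while its difference stayed between -2.83 and -2.62. DESeq2 called 5 members: Pmvk, Idi1, Fdps and Srebf2 lower and Dhcr7 higher, among 1044 genes in all, against 96 by edgeR. Without WT LPS replicate 2 edgeR called Fdft1 beside Pmvk, among 206 genes.

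The interaction asked whether the LPS response itself differed between genotypes. EdgeR called 0 members at its adjusted threshold, as it called 0% of all genes. At an unadjusted p under 0.05 there were 5 members (15.6%), beside 6.41% of all genes: Pmvk, Idi1, Srebf2, Fdps and Sqle, each with a lower response in KO. Pmvk had a response of log2 -0.47 ± 0.22 in KO and 1.55 ± 0.22 in WT, and the interaction was -2.02 ± 0.31 (95% interval -2.74 to -1.30, edgeR adjusted p = 0.422). Both KO LPS libraries were below both KO ST libraries, and both WT LPS libraries above both WT ST libraries. Srebf2 had -1.16 ± 0.25 in KO and 0.11 ± 0.24 in WT, with an interaction of -1.26 ± 0.34 (edgeR adjusted p = 0.579). Idi1 had -3.70 ± 0.62 in KO and -0.63 ± 0.51 in WT (interaction -3.07 ± 0.80, edgeR adjusted p = 0.570). The highest interaction was that of Mvd at 0.80 ± 0.71, and the lowest of the fatty acid genes was that of Scd1 at -1.48 ± 0.88. DESeq2 called 1 member, Pmvk (adjusted p = 3.9e-05).

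Between the genotypes at steady state, edgeR called 0 of the 32 members, as it called 0% of all genes, and DESeq2 called 0 as well. The spread of each gene was estimated over all 8 libraries, and it was larger with LPS than at steady state. With only the steady-state libraries in the fit, edgeR called 0 members and 1 gene in all. At an unadjusted p under 0.05 in the main fit there was 1 member (3.12%), beside 2.63% of all genes. It was Pmvk, at 48.9 and 45.8 CPM in KO ST, against 70.4 and 84.5 in WT ST (log2 -0.71 ± 0.22, edgeR adjusted p = 1). The highest difference was that of Scd2, at 348 and 280 CPM in KO ST and 214 and 121 in WT ST (log2 0.91 ± 0.52). In each of the other role groups the highest was Stard4 (0.80 ± 0.64), Hsd17b7 (0.71 ± 0.58) and Hmgcs1 (0.44 ± 0.23), each with an edgeR adjusted p of 1. Hsd17b7 had 12.2 and 15.5 CPM in KO ST, against 7.73 and 9.15 in WT ST, while Tm7sf2, a sterol reductase, had 13.7 and 15.8 CPM in KO ST, against 20.8 and 16.4 in WT ST. Neither gene's groups overlapped, on opposite sides. Differences were above 0 in 27 of the 32 members, among them all 8 fatty acid genes and all 6 control genes, and below 0 in Mvk, Pmvk, Mvd, Fdft1 and Tm7sf2. Groups did not overlap for 18 members higher and 3 lower in KO ST (Mvk, Pmvk and Tm7sf2), or 56.2% and 9.38%, beside 22.1% and 23.4% of all genes. The median log2 difference was 0.28 over the members and -0.01 over all genes.

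The WT ST libraries were unequal in traces of other cells. The 9 neutrophil markers found of 10 listed summed to 8.76 and 6.82 CPM in KO ST, against 29.1 and 257 in WT ST, and the 6 mast cell and basophil markers to 42.3 and 28.5 CPM in KO ST, against 36.6 and 133 in WT ST. Mcpt8 and Fcer1a had 0 reads in both KO ST libraries. The 12 cell cycle markers summed to 237 and 358 CPM in KO ST, against 208 and 272 in WT ST. Their part in these differences was not tested.

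**Figure D4:**
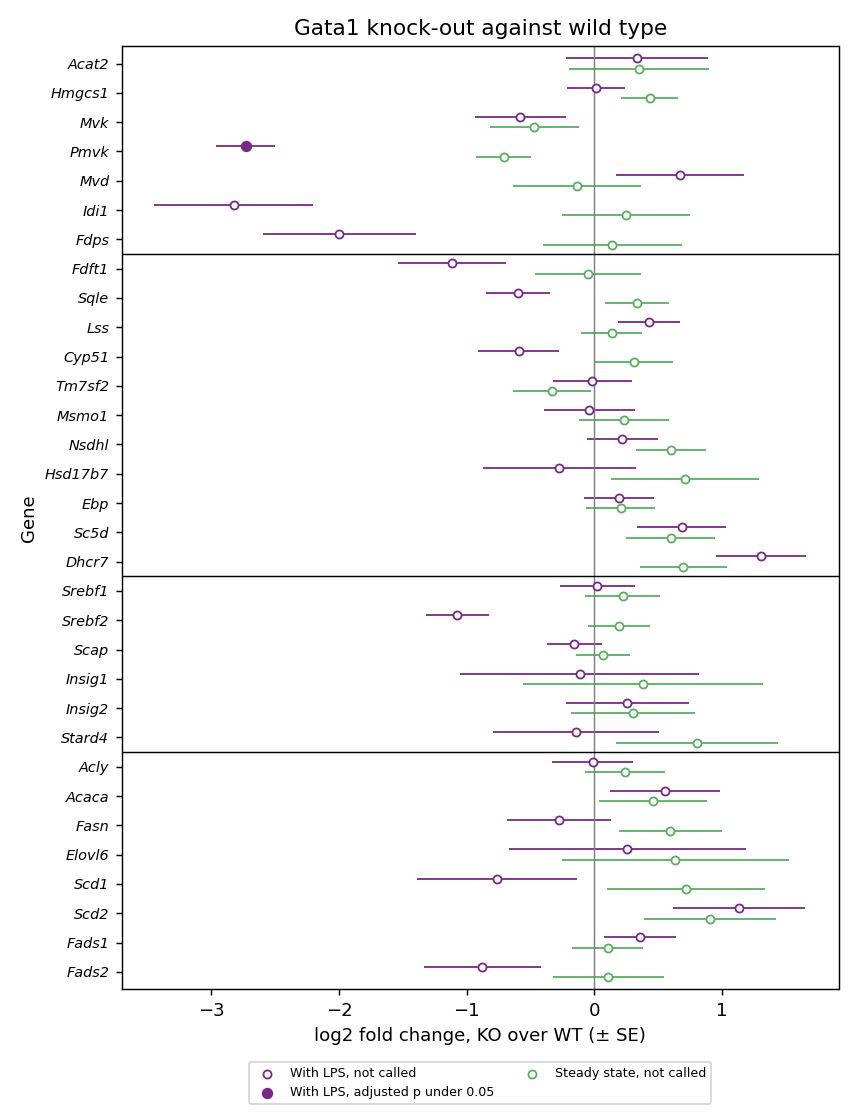
Log2 fold change of KO over WT (x axis) for each member (y axis, by role), with LPS above steady state and SE bars; the filled point has an adjusted p under 0.05. Pmvk with LPS, at -2.73, is the 1 filled point, and the fatty acid genes lie on both sides of 0 with LPS and above 0 at steady state.

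The sterol and fatty acid branches were set side by side by their counts and medians, with no test of the branches against each other. In KO LPS against KO ST, 4 of 18 sterol genes (22.2%) and 2 of 8 fatty acid genes (25.0%) were called lower, beside 6.46% of all genes. The median log2 differences were -0.63 and -0.90, beside -0.02 for all genes. In WT LPS against WT ST, 1 sterol gene was called higher and 1 lower, and 0 fatty acid genes were called by edgeR after the filter on low counts. Over all genes tested there, 3% were called higher and 3.49% lower. Fasn was called lower by edgeR with no filter (1497 genes called in all) and by DESeq2 (1965 genes), against 807 genes with the filter. An unadjusted p under 0.05 was reached by 4 of 18 sterol genes (22.2%) and 2 of 8 fatty acid genes (25.0%; Fasn and Fads2), beside 26.7% of all genes. The medians there were -0.31 for the sterol branch and -0.64 for the fatty acid branch, beside 0.00 for all genes. In KO ST against WT ST the medians were 0.24 and 0.53, beside -0.01 for all genes. In KO LPS against WT LPS they were -0.03 and 0.12, beside -0.01 for all genes, and with upper-quartile factors the sterol median was 0.00 and changed sign. The summed level of the sterol genes was 426 and 457 CPM in KO LPS, 667 and 550 in WT LPS, 671 and 612 in KO ST, and 602 and 515 in WT ST. The fatty acid genes summed to 989 and 530 CPM in KO LPS, 511 and 584 in WT LPS, 1072 and 949 in KO ST, and 760 and 675 in WT ST. Scd2 alone gave 578 of the 989 CPM in KO LPS replicate 1. Comparisons that share a group, such as those with KO LPS, are not independent of each other.

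Insig1, Elovl6 and Stard4 were among the members that varied more between the libraries of an LPS group than between groups. Acat2, Mvd and Scd2 were others. Insig1, the feedback partner of SCAP, had 33.8 and 114 CPM in KO LPS, 145 and 15.8 in WT LPS, 50.9 and 42.9 in KO ST, and 47.1 and 24.8 in WT ST. The higher WT LPS library had 9.17 times the level of the lower, and no comparison of Insig1 passed. Elovl6 had 5.76 and 1.38 CPM in KO LPS, 0.529 and 5.26 in WT LPS, 9.69 and 12.3 in KO ST, and 7.15 and 6.99 in WT ST. Stard4 had a ratio of 5.62 between the KO LPS libraries. Over the members the median ratio of the higher to the lower library was 1.32 in KO LPS, 1.61 in WT LPS, 1.14 in KO ST and 1.20 in WT ST, beside 1.42, 1.58, 1.12 and 1.22 over all genes with reads in both libraries. In 22 of the 32 members (68.8%) the library that was higher in KO LPS bore the other number than the library that was higher in WT LPS, as in 76.3% of all genes tested.

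Among other genes of these pathways, Lpin1, a phosphatidate phosphatase that also acts on SREBP activity, had 14.6 and 22.8 CPM in KO LPS, against 64.4 and 51.0 in KO ST, and fell (log2 -1.63 ± 0.37, edgeR adjusted p = 0.0348). In WT it had 28.3 and 15.8 CPM with LPS, against 42.7 and 54.7 at steady state, and did not pass (log2 -1.15 ± 0.36, edgeR adjusted p = 0.103). Its groups did not overlap in either genotype, as in 38.2% of all genes in KO and 29.1% in WT with lower levels in LPS. Of 6 oxysterol and efflux genes, Nr1h3, the liver X receptor alpha, was called in KO and none was called in WT. Nr1h3 rose in KO to 11.7 and 18.5 CPM with LPS, against 2.64 and 2.66 at steady state (edgeR adjusted p = 0.0285). In WT it had 4.63 and 10.5 CPM with LPS, and 5.12 and 2.97 at steady state, with overlapping groups (log2 0.92 ± 0.51, edgeR adjusted p = 0.285). The interaction for Nr1h3 was 1.59 ± 0.72 and was not called (edgeR adjusted p = 0.815). Over all genes tested, 5.3% were called higher in KO and 3% in WT.

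Of 14 tested further fatty acid genes, 3 were called higher with LPS in each genotype and none lower. Over all genes tested, 5.3% were called higher and 6.46% lower in KO, and 3% and 3.49% in WT. Acsl1, a long-chain acyl-CoA synthetase, had 2111 and 1982 CPM in KO LPS, against 47.6 and 59.2 in KO ST, and 578 and 754 in WT LPS, against 39.8 and 50.8 in WT ST (edgeR adjusted p = 0.00199 in KO and 0.00372 in WT). The malic enzyme gene Me1 rose in both genotypes, by log2 2.87 ± 0.44 in KO and 2.01 ± 0.44 in WT (edgeR adjusted p = 0.0114 and 0.0428). The third was Acss2, which makes acetyl-CoA from acetate, in KO and Acsl4 in WT. Acss2 had 58.4 and 68.4 CPM in KO LPS, against 16.7 and 18.1 in WT LPS, and was the 1 gene of these lists called between genotypes with LPS (log2 1.87 ± 0.26, edgeR adjusted p = 0.0366). Acss2 and Fasn thus lay on opposite sides of 0 in the LPS response of KO cells.

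No source used here says how multi-mapping reads were treated, and the library kit does not mark strand. The spans of 4 members overlap another protein-coding gene in RefSeq (Fdft1, Tm7sf2, Srebf1 and Acaca), so their counts are less certain. The near copies Acat2 and Acat3, Idi1 and Idi2, and Scd1 and Scd2 could share reads. Of the 8 called members, none overlaps another protein-coding gene in RefSeq, and Idi1 has the neighbour Idi2.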

How the data were processed

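The 8 RNA-seq libraries, from mouse dendritic cells, were prepared with a TruSeq RNA v2 kit per the labels' protocols. The authors deposited raw read counts per gene. Per the submitters' processing notes, mm10 was used with TopHat2 2.0.8, edgeR 3.6.8, Subread 1.4.3 and featureCounts, with no role stated for any tool.

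Groups and replicate numbers came from sample titles. The count model was edgeR 4.0.16 (R 4.3.3): filterByExpr (minimum count 10, minimum total 15) kept 12442 of 23420 genes, libraries were scaled with TMM, and the quasi-likelihood F test used 1 coefficient for each group and all 8 libraries together, since 2 against 2 leave few residual degrees of freedom (4 residual, 3.40 prior, biological coefficient of variation 0.340). Tests were two-sided, with 5 comparisons. Replicate libraries differed by more than sampling noise (chi-square statistic per gene 15.2 to 148). The design text says biological replicates without naming separate animals or cultures, so p-values measure the spread between these libraries. That spread was estimated for each gene over the 4 groups together, although it was larger with LPS than at steady state.

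The members, the gene lists and the naming rule were all chosen with earlier results of these data known. Values per library are given for members called, for the highest and lowest of each role group, for the SREBP regulators and for the most abundant members, and other pathway genes are named where called, except some that are not reported here. Exon lengths are the union of exons in GENCODE M21 (GRCm38), and coordinates and promoter windows are from RefSeq GRCm38.p6. The procedure was tested on simulated counts in which all groups shared each gene's spread. That test does not cover the larger spread seen with LPS. The alternatives tried were leaving out each library, a replicate block, fits restricted to the groups compared, DESeq2 1.42.0, RLE and upper-quartile scaling, robust dispersion, a threshold of 0.01, and either no filter or one on CPM (1 or more in 2 libraries).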

Additional observations from a re-analysis of the deposited data

Results flagged for a closer look

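Pmvk was marked because both KO LPS libraries lay below both KO ST libraries while both WT LPS libraries lay above both WT ST libraries. Its LPS response in KO minus that in WT was log2 -2.02 (edgeR adjusted p = 0.422), so the difference did not pass over all genes with edgeR, whereas DESeq2 gave an adjusted p of 3.9e-05. Groups of 2 libraries are too small to mark single outlying libraries.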

How the results depend on the processing

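The counts of members called in KO ST against WT ST (0) were the same under every alternative run, and those of the interaction (0) under all but DESeq2, which called 1. At an adjusted p under 0.01 the counts were 0 in the other 3 comparisons. With no filter, and with DESeq2, the count in WT LPS against WT ST was 3, with Fasn added. In KO LPS against WT LPS the count of 1 became 2 with no filter and 5 with DESeq2, and 0 with only the groups compared; leaving out a library gave 0 to 2. In WT LPS against WT ST the count of 2 became 0 with only the groups compared, and 0 to 7 with a library left out. In KO LPS against KO ST the count of 7 ranged from 0 to 11 with a library left out. With the replicate number as a block it was 4, and the block changed no other count of members. The cause of these changes was not tested, except that leaving out a library leaves its group with 1, assumed to vary like the others, and fewer residual degrees of freedom. No difference of a called member reversed in the alternatives run.

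The replicate numbers were not taken as pairs, since not every correlation of same-numbered libraries' deviations was above 0.1: they ran from -0.599 (KO LPS with WT LPS) to 0.260 (WT ST with WT LPS). Because of the negative value, whether the LPS numbers are crossed between genotypes is in doubt, and an exchange of the KO LPS numbers was added after seeing the data: 1 member and 273 genes were called in KO LPS against WT LPS, against 1 and 8 with the block as numbered. Of the members, Idi1 was limited most by depth, with 7 and 1 reads in KO LPS.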
